A study of Homo sapiens with 6 samples.

Results

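ATF4 and 9 regulators of the integrated stress response were described in cells of HCT15, a human line established from a colorectal cancer. The genes were ATF4, ATF3, ATF5, DDIT3, CEBPB, CEBPG, TRIB3, CHAC1, PPP1R15A and NUPR1, taken by symbol from a table of 12793 rows, and all 10 were found. They were selected on their FPKM in this same comparison, lower in the libraries labelled knockout. RNA was sequenced from 3 libraries labelled sgRBM15 with the genotype RBM15 knockout, made with CRISPR/Cas9, and from 3 libraries labelled sgctrl with the genotype WT, all grown in serum-containing RPMI-1640 with antibiotics and with no stress treatment in the labels. RBM15 binds RNA and brings the m6A methyltransferase to its targets, and the study asked what its loss did inside tumour cells. The sources used here give neither the guide's cut site nor whether the edited cells were 1 clone or a pool. Separate cultures are not stated for the 3 libraries of either group, so a p-value reflects the spread among the libraries alone, and that spread may be technical.

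The integrated stress response joins several alarms, among them lack of amino acids, unfolded protein in the endoplasmic reticulum, viral RNA and mitochondrial damage. Each activates a kinase that phosphorylates the alpha subunit of the initiation factor eIF2, which lowers protein synthesis in general while short reading frames in the leader of the ATF4 mRNA let ATF4 protein be made. ATF4, a basic leucine zipper (bZIP) transcription factor, pairs with C/EBP proteins and binds composite C/EBP-ATF elements in genes of amino acid supply, in further factors such as ATF3 and DDIT3, and in genes that end the response, such as PPP1R15A and TRIB3. mRNA levels show neither the phosphorylation of eIF2 alpha nor the amount of ATF4 protein.

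Promoter sequence is shown first because the C/EBP-ATF element is what links these genes in the textbook account. The genes come from that account, so the counts below describe them and are no independent evidence that the element is common among them. RefSeq promoters on GRCh38.p14, each running from 250 bases before to 50 bases after a transcript start, matched 9 of the 10 genes in 18 windows, and NUPR1 had no entry. The core TGATGNAA was searched on both strands. It was found in windows of 3 of the 9 genes, CEBPG, CHAC1 and ATF3, and in 2.63% of the 9928 genes of the table that had a window. The palindromic cAMP response element TGACGTCA was found in 1 of the 9, PPP1R15A, and in 3.8% of all genes with a window. The C/EBP palindrome TTGCGCAA (0.292% of genes) and the ER stress response element (0.161% of genes) were in none of the 9. A match of letters is a description of the sequence, and genes with several windows had more chances of one. Capitals mark the matched letters. The stretches printed for ATF3 and PPP1R15A stop where the annotated gene begins, 73 and 29 bases short of the RefSeq start.
CEBPG, chr19:33374060-33374089, plus strand, 42 to 35 bases before a RefSeq start, in an intron of CEBPG in GENCODE 29: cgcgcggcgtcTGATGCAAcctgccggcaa
CHAC1, chr15:40953251-40953280, plus strand, 209 to 202 bases before a RefSeq start, in an exon of a longer CHAC1 transcript, core on the opposite strand: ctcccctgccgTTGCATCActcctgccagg
ATF3, chr1:212565157-212565333, plus strand, between genes, core 191 to 184 bases before a RefSeq start: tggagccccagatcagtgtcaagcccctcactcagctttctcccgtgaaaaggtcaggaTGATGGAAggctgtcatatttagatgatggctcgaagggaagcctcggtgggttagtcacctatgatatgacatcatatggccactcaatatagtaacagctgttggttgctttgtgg
PPP1R15A, chr19:48872171-48872391, plus strand, between genes, cAMP response element 58 to 51 bases before a RefSeq start: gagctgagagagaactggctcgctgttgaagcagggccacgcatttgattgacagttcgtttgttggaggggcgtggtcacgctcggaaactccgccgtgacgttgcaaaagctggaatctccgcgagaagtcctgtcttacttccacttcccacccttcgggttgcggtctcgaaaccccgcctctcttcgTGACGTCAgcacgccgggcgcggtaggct

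The values are FPKM, fragments scaled to transcript length and to the size of the library, as the authors deposited them, so levels of different genes are compared per length. RBM15, the targeted gene, measured 17.3, 18.5 and 18.0 FPKM under the knockout label, against 5.97, 5.89 and 5.51 FPKM in the control libraries (log2 difference 1.48, limma adjusted p = 3.88e-06). It was thus higher, not lower, under the knockout label. Each direction below therefore rests on the labels alone. Column sums lay between 402288 and 409194 FPKM in libraries labelled knockout, against 409748 to 415057 FPKM in the controls. Read depth is unknown. Across genes, log2 levels correlated at 0.993 within each pair of libraries labelled knockout, at 0.992 to 0.993 within the controls and at 0.976 to 0.978 between the groups. Of 13 colon epithelial markers 10 were listed, of which 8 fell and 1, KRT8, rose under the knockout label, with a median log2 difference of -0.52. Over all 11451 tested genes 29.2% fell and 25.3% rose at a limma adjusted p of at most 0.05. VIL1, which encodes villin, fell to 3.87 ± 0.222 FPKM in the libraries so labelled, against 17.0 ± 0.168 FPKM in the controls (SD, n = 3 each; log2 difference -1.89, limma adjusted p = 2.16e-06). CDX2, an intestinal transcription factor, had a log2 difference of -1.06, the claudin genes CLDN3, CLDN4 and CLDN7 of -0.73, -0.68 and -0.69, and KRT19 of -0.36. EPCAM stayed abundant, at 415 ± 3.68 FPKM under the knockout label, against 527.7 ± 5.3 FPKM in the controls. KRT20, CDX1 and LGALS4 were not analysed here. The listed epithelial markers, most of the sum being KRT8 and KRT18, added up to 3849 to 4001 FPKM in libraries labelled knockout, against 4414 to 4494 FPKM in the controls. Of 19 markers of fibroblasts, leukocytes and endothelium only COL1A1, CD68 and CLDN5 were listed, and the others, PTPRC, CD3E, DCN and PECAM1 among them, were not analysed here. CD68 was at 6.68 ± 0.632 FPKM in libraries labelled knockout, against 2.91 ± 0.216 FPKM in the controls, and CLDN5 at 0.803 ± 0.0738 against 1.26 ± 0.13 FPKM. COL1A1 was at 1.18 ± 0.306 FPKM under the knockout label, against 1.15 ± 0.245 FPKM in the controls. The part of these markers in the results below was not tested.

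All 10 genes were lower in the libraries labelled knockout. For 10 of 10 the values of the groups did not overlap, and over all 11451 tested genes (at least 1 FPKM on average) 33.4% were lower without overlap and 63% did not overlap in either direction. The 10 were proposed with this comparison in view, so their own differences are given as a description, without a test, and nothing is read from that count. Their median log2 difference on the log2(FPKM + 1) scale was -0.92, and the median over all tested genes was -0.018. The differences ran from -1.60 for CEBPB to -0.43 for CEBPG. At -1 or below were 4 of the 10, the scarce NUPR1 among them, and 162 of all 11451 tested genes. Nothing is read from that count of the 10 either. In bulk RNA, fewer cells that express a gene and less of its RNA per cell cannot be told apart.

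**Figure D1:**
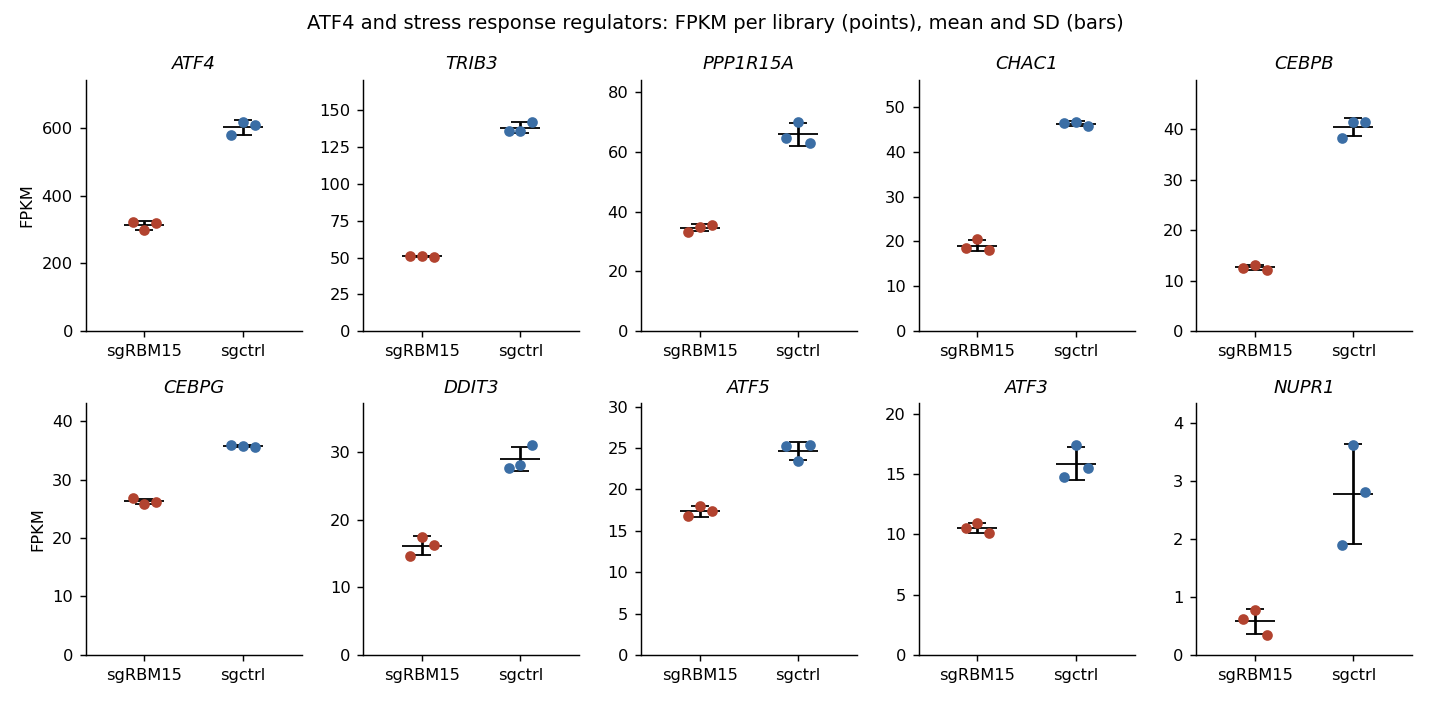
FPKM of the 10 genes in each library (points), with mean and SD (bars), libraries labelled sgRBM15 on the left and sgctrl on the right of each panel, each vertical axis starting at 0. In every panel the 3 sgRBM15 points lie below the 3 sgctrl points, from ATF4 (313 against 601 FPKM on average) to NUPR1 (0.585 against 2.78 FPKM).

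ATF4, the effector of the response, had the highest level of the 10. It stood at 321, 298 and 320 FPKM in libraries labelled knockout, against 578, 618 and 607 FPKM in the controls. The means were 313 ± 13 and 601.2 ± 20.9 FPKM, so the level was 47.9% lower under the knockout label (log2 difference -0.94, SE 0.04). Even the highest library labelled knockout lay well below the lowest control. ATF4 remained among the most abundant mRNAs in both groups: 98.7% of all rows lay below it in the libraries labelled knockout and 99.3% in the controls. In GRCh38, ATF4 (ENSG00000128272) spans 39519695 to 39522685 of chromosome 22 on the plus strand, and no other annotated gene shares its exons.

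CEBPG and CEBPB encode C/EBP proteins, the class of partner with which ATF4 binds composite elements, and on the log2(FPKM + 1) scale they stood at opposite ends of the range, although NUPR1 was lower by a larger ratio of FPKM (4.75-fold) and, with a pseudocount of 0.1, by a larger log2 difference (-2.08 against -1.67 for CEBPB). CEBPG, a short C/EBP protein without an activation domain, was at 26.8, 25.8 and 26.2 FPKM in libraries labelled knockout, against 35.8, 35.8 and 35.5 FPKM in the controls. Its 26.5% lower mean was the smallest difference of the 10 (log2 difference -0.43, SE 0.032), and its replicates were the closest together, with a within-group SD of 0.018 on the log2 scale. CEBPB, which also acts in inflammation and adipocyte differentiation, was at 12.6, 13.2 and 12.1 FPKM in libraries labelled knockout, against 38.3, 41.5 and 41.3 FPKM in the controls. That is a mean 3.2-fold lower (log2 difference -1.60, SE 0.049), and of all tested genes 0.262% had a more negative difference. The ratio of CEBPB to CEBPG was 0.471, 0.51 and 0.461 in the libraries labelled knockout, against 1.07, 1.16 and 1.16 in the controls. CEBPB was thus the more abundant of the pair in every control library and the less abundant in every library labelled knockout. CEBPB (ENSG00000172216, chromosome 20, 50190734 to 50192689) has 1 exon and shares 231 bp with the antisense gene CEBPB-AS1, which was not analysed here. The sources used here do not say whether counting used strand.

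DDIT3, ATF3 and ATF5 encode further bZIP factors of the response, and all 3 had smaller differences than CEBPB. DDIT3, known as CHOP, a dimer partner that promotes cell death under lasting stress, was at 14.7, 17.5 and 16.2 FPKM in libraries labelled knockout, against 27.7, 28.1 and 31.0 FPKM in the controls. Its mean was 44.3% lower (log2 difference -0.81, SE 0.072). ATF3, a repressor induced by many kinds of stress, was at 10.5, 10.97 and 10.1 FPKM under the knockout label, against 14.8, 17.4 and 15.5 FPKM in the controls (log2 difference -0.55, SE 0.066). ATF5, the closest relative of ATF4 and a factor of the mitochondrial stress response, was at 16.7, 18.0 and 17.3 FPKM in libraries labelled knockout, against 25.2, 23.4 and 25.3 FPKM in the controls (log2 difference -0.48, SE 0.047). ATF3 and ATF5 thus lay near CEBPG at the small end of the range, with means 33.7% and 29.6% lower under the knockout label.

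Exons of DDIT3 and ATF5 overlap those of genes on the opposite strand. DDIT3 (ENSG00000175197, chromosome 12, 57516588 to 57521737, minus strand) shares 355 bp with MARS1, which encodes methionyl-tRNA synthetase, and 58 bp with MBD6. MARS1 fell to 67.9 ± 4.18 FPKM in libraries labelled knockout, against 82.9 ± 3.79 FPKM in the controls (limma adjusted p = 0.00406), and MBD6 to 10.6 ± 0.474 against 14.4 ± 0.607 FPKM (limma adjusted p = 0.000633). ATF5 (ENSG00000169136, chromosome 19, 49928702 to 49933935, plus strand) shares 626 bp with the nucleoporin gene NUP62. That neighbour went the other way: it rose to 42.7, 44.0 and 46.0 FPKM under the knockout label, against 36.9, 34.3 and 36.8 FPKM in the controls (log2 difference 0.29, limma adjusted p = 0.00149). DDIT3 also shares 105 bp with AC022506.1 on its own strand. ATF5 also shares 74 bp with MIR4751 on its own strand and 75 bp with IL4I1 on the opposite strand. AC022506.1, MIR4751 and IL4I1 were not analysed here. How the authors' estimates divided reads between overlapping genes was not tested. MARS1, MBD6 and NUP62 are named for their position.

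TRIB3 and PPP1R15A encode proteins that restrain the response. TRIB3, a pseudokinase that binds ATF4 and DDIT3, was the second most abundant of the 10 in both groups, at 51.0, 50.9 and 50.5 FPKM in libraries labelled knockout, against 136, 136 and 142 FPKM in the controls. Its mean was 2.72-fold lower (log2 difference -1.42, SE 0.03). For each 100 FPKM of ATF4 there were 15.9, 17.1 and 15.8 FPKM of TRIB3 in the libraries labelled knockout, against 23.5, 22 and 23.4 in the controls, so TRIB3 was lower also relative to ATF4 in every library. PPP1R15A, known as GADD34, the stress-induced subunit that brings protein phosphatase 1 to eIF2 alpha, was at 33.3, 35.0 and 35.6 FPKM under the knockout label, against 64.6, 70.0 and 62.8 FPKM in the controls. Its mean was 1.9-fold lower (log2 difference -0.91, SE 0.049), close to the 1.92-fold of ATF4 itself.

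CHAC1 and NUPR1 are downstream genes with other tasks. CHAC1, an enzyme that breaks down glutathione, was at 18.6, 20.5 and 18.0 FPKM in libraries labelled knockout, against 46.4, 46.7 and 45.7 FPKM in the controls (log2 difference -1.24, SE 0.051). Its mean was 2.43-fold lower, a ratio between those of TRIB3 and ATF4. NUPR1, a small stress-induced chromatin protein, was by far the scarcest, at 0.628, 0.775 and 0.351 FPKM under the knockout label, against 1.91, 3.62 and 2.81 FPKM in the controls. Its values spread widest, with a within-group SD of 0.277 on the log2 scale, where the median over all tested genes was 0.073. The log2 difference of -1.24 (SE 0.185) depends on the pseudocount and was -2.08 with a pseudocount of 0.1. NUPR1 averaged under 1 FPKM in libraries labelled knockout and passed the filter only through the controls.

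**Figure D2:**
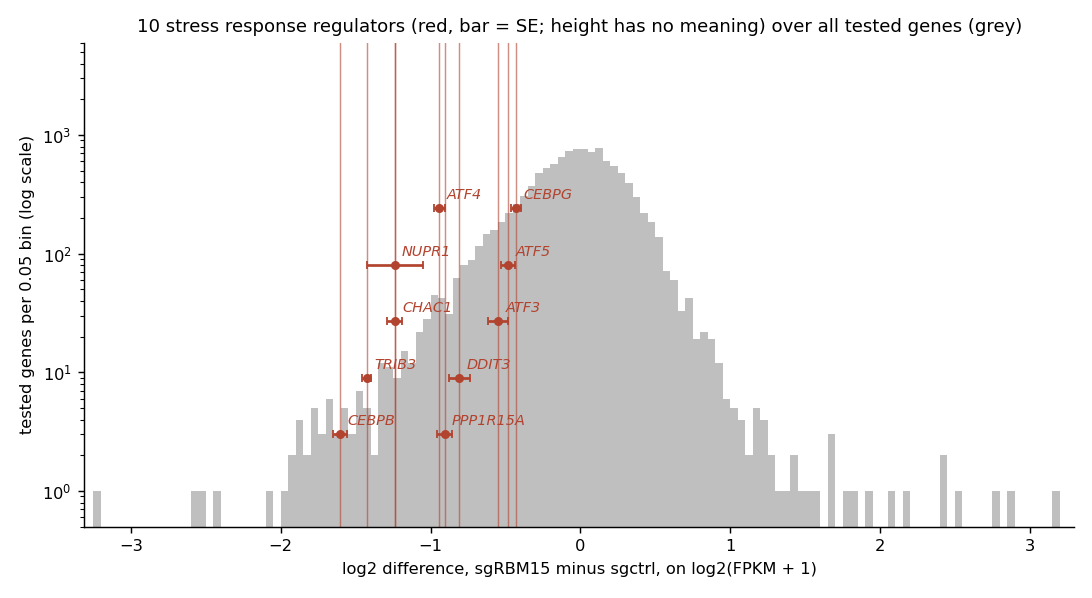
Log2 difference (sgRBM15 minus sgctrl, on log2(FPKM + 1)) of the 10 genes in red, with bars of 1 SE and heights chosen for legibility, over the distribution of all 11451 tested genes in grey on a log count axis. The 10 genes lie left of 0, from CEBPB at -1.60 to CEBPG at -0.43, and the median of all tested genes is -0.018.

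The order of the levels was partly kept between the groups. In both, ATF4 was followed by TRIB3 and PPP1R15A, and ATF3 and NUPR1 came last. CEBPB came after DDIT3 in the libraries labelled knockout, against after CHAC1 in the controls, while CEBPG came ahead of CHAC1 in the libraries labelled knockout and behind CEBPB in the controls. Neighbours in the order had ranges that did not overlap, except ATF5 and DDIT3 in the libraries labelled knockout. ATF4 supplied 60.7% to 63.5% of the summed FPKM of the 10 genes in the libraries labelled knockout, against 59.7% to 60.6% in the controls. The other 9 together summed to 185 to 193 FPKM under the knockout label, against 391 to 403 FPKM in the controls. DDIT3 kept nearly the same proportion to ATF4, with 4.56, 5.86 and 5.07 FPKM for each 100 FPKM of ATF4 in the libraries labelled knockout, against 4.79, 4.55 and 5.1 in the controls, and these values overlap.

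Upstream start codons were counted in the leaders of these mRNAs, the stretch before the coding sequence. Counted in 1 GENCODE 29 transcript per gene, 8 of the 10 genes had at least 1 AUG in the leader, as did 53.9% of 11926 coding genes of the table, and 7 had at least 2, as did 32.7%. ATF4 had 7 upstream AUG in a leader of 882 bases, TRIB3 and CEBPG had 3, and DDIT3, ATF5, PPP1R15A and NUPR1 had 2. ATF3 had 1, while CEBPB, with a leader of 300 bases, and CHAC1, with 20 bases, had 0. The count depends on the transcript chosen: over the annotated basic transcripts it ran from 3 to 7 for ATF4, from 2 to 5 for DDIT3, from 0 to 5 for ATF3, from 0 to 2 for NUPR1 and from 0 to 4 for CHAC1. In 6 of the 10 genes every basic transcript had at least 1. The median leader over all these genes was 204 bases. Translation from these start codons was not measured.

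Upstream of ATF4, genes that set the phosphorylation of eIF2 alpha or choose start sites did not share the direction of the 10. Of 27 tested genes in that list, 14 rose and 8 fell in the libraries labelled knockout, and 22 passed limma's test (81.5%), where 54.5% of all tested genes passed, 25.3% higher and 29.2% lower. The median log2 difference was 0.14. Without library 3 labelled knockout, and likewise without control library 1, 12 rose and 5 fell. EIF2AK1, the kinase HRI that senses heme lack and mitochondrial damage, fell to 98.7, 93.9 and 95.1 FPKM under the knockout label, against 117, 111 and 118 FPKM in the controls (log2 difference -0.27, adjusted p = 0.000833 in limma). The other 3 kinases rose. EIF2AK3, which is PERK of the endoplasmic reticulum, was at 8.29, 8.96 and 8.77 FPKM in libraries labelled knockout, against 6.61, 6.62 and 6.08 FPKM in the controls (log2 difference 0.38, limma adjusted p = 0.00122). EIF2AK2, the kinase PKR that binds double-stranded RNA, averaged 19.9 ± 0.466 FPKM under the knockout label and 15.8 ± 0.542 FPKM in the controls (SD, n = 3 each; log2 difference 0.32, limma adjusted p = 0.000823). EIF2AK4, which is GCN2, the sensor of uncharged tRNA, had a log2 difference of 0.19 (limma adjusted p = 0.0294), and its call was lost without library 2 (0.0503) or 3 (0.0533) of those labelled knockout and without control library 1 (0.0861) or 2 (0.0678).

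**Figure D3:**
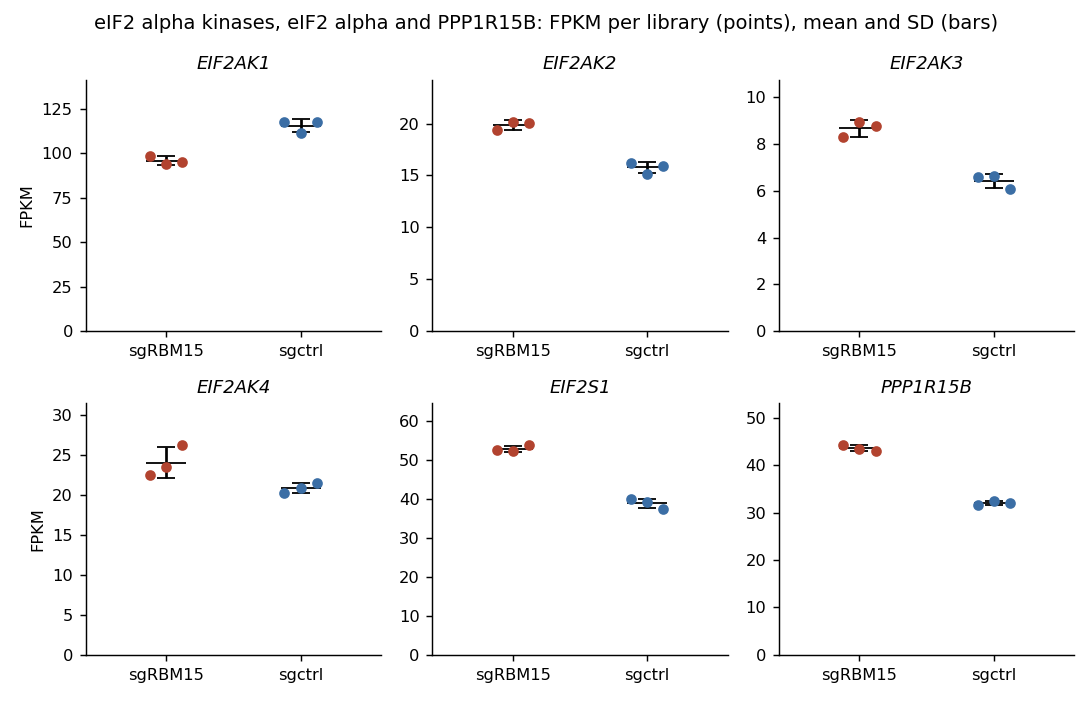
FPKM per library (points) with mean and SD (bars) of the 4 eIF2 alpha kinase genes, of EIF2S1 and of PPP1R15B, with sgRBM15 libraries on the left and sgctrl on the right of each panel. EIF2AK1 is lower in the sgRBM15 libraries (95.9 against 115.5 FPKM on average), and the other 5 genes are higher there, PPP1R15B at 43.5 against 32.1 FPKM.

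EIF2S1, which encodes eIF2 alpha itself, rose to 52.8 ± 0.754 FPKM in libraries labelled knockout, against 38.8 ± 1.27 FPKM in the controls (log2 difference 0.44, limma adjusted p = 0.000104). PPP1R15B, the constitutive partner of the same phosphatase and the paralog of PPP1R15A, rose to 43.5 ± 0.615 FPKM under the knockout label, against 32.1 ± 0.389 FPKM in the controls (log2 difference 0.43, limma adjusted p = 6.53e-05). The 2 phosphatase subunits thus stood in opposite directions: PPP1R15A was the more abundant of the pair in the controls and PPP1R15B in the libraries labelled knockout. OMA1, the mitochondrial protease that cleaves DELE1 to signal to EIF2AK1, fell to 9.92 ± 0.269 FPKM, against 17.4 ± 0.362 FPKM in the controls (log2 difference -0.75, limma adjusted p = 2.49e-05). IMPACT, an inhibitor of GCN2 activation, fell by 0.48 on the log2 scale. EIF2A had a log2 difference of -0.50 (limma adjusted p = 0.0355), but its libraries spread from 32.8 to 48.5 FPKM under the knockout label and from 50.9 to 70.2 FPKM in the controls. That call was lost without library 1 (adjusted p = 0.0717) or 3 (0.0914) of those labelled knockout and without control library 1 (0.0906) or 2 (0.0556).

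Downstream, most genes reported to be induced through ATF4 fell. The list held 44 genes, of which 41 were tested, and under the knockout label 35 fell and 1 rose, a share of 87.8% passing limma's test, where 54.5% of all tested genes passed. The median log2 difference was -0.60. On the TPM scale 33 fell and 2 rose, and with median centring 34 fell and 2 rose. The list was drawn up with falls of such genes in these samples already known, so the count is no independent evidence of their direction. By kind of gene, 9 of 11 tested enzymes of amino acid and one-carbon metabolism fell, 8 of 8 amino acid transporters, 7 of 8 genes of tRNA charging and export and 11 of 14 others. Amino acid transporters ran from -1.48 to -0.31 on the log2 scale, while genes of tRNA charging and export ran from -0.61 to -0.02. This grouping was made after the values were seen.

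The 6 largest changes of that list were decreases. PCK2, mitochondrial phosphoenolpyruvate carboxykinase, had a log2 difference of -1.66, DDIT4, an inhibitor of mTORC1, of -1.63, and GDF15, a secreted stress cytokine, of -1.51 (limma adjusted p between 2.9e-07 and 1.04e-06). FGF21, a secreted metabolic hormone, fell to 1.16 ± 0.269 FPKM in libraries labelled knockout, against 5.1 ± 1.02 FPKM in the controls (log2 difference -1.49, limma adjusted p = 0.000198). SLC6A9, a glycine transporter, fell to 6.02 ± 0.113 FPKM, against 18.6 ± 0.0666 FPKM in the controls, and VEGFA, the angiogenic factor, fell by 1.30 on the log2 scale. The difference of PCK2 was about as large as that of CEBPB among the 10 regulators. The exceptions, named after their values were seen, were ALDH18A1, the enzyme that starts proline synthesis, which rose by 0.21 (limma adjusted p = 0.000827), and CTH, EPRS1, ERO1A, SQSTM1 and CDKN1A, which did not pass and lay between -0.20 and 0.08 on the log2 scale. Among these, CTH passed without control library 2 (log2 difference -0.30), SQSTM1 without library 3 labelled knockout (-0.15), and ERO1A on the TPM scale (0.10) and with median centring (0.11).

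**Figure D4:**
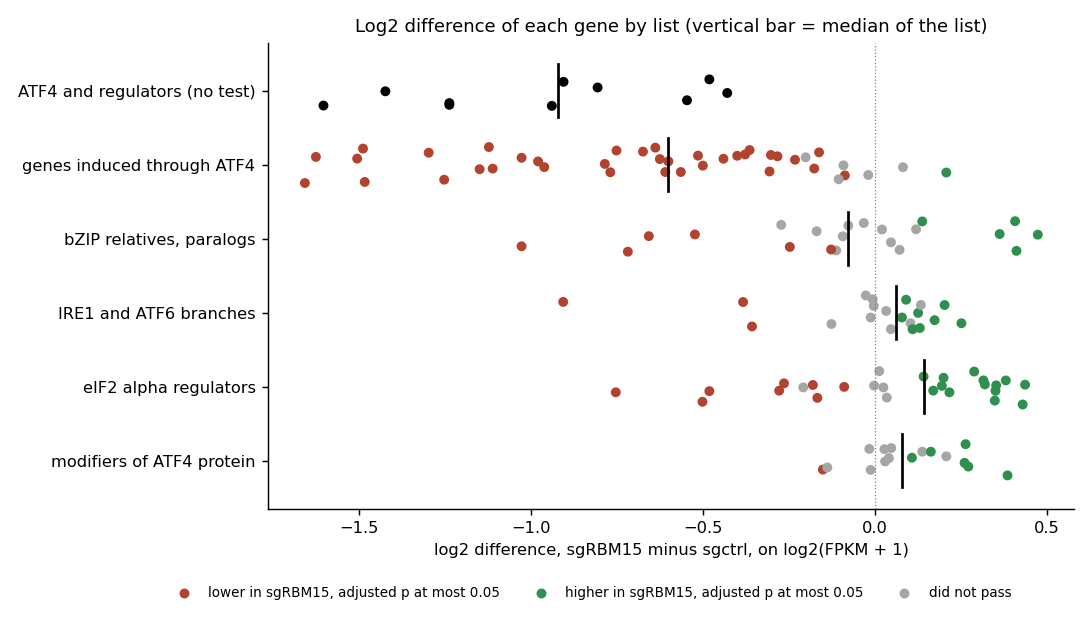
Log2 difference (sgRBM15 minus sgctrl, on log2(FPKM + 1)) of each gene, with 1 row per list and a vertical bar at the median of the list. Red and green mark genes lower and higher in the sgRBM15 libraries at limma adjusted p of at most 0.05, grey marks genes that did not pass, and black marks the 10 regulators, which were not tested. Medians were -0.92 for the 10 regulators, -0.60 for genes induced through ATF4, -0.08 for relatives, 0.06 for the IRE1 and ATF6 branches, 0.14 for regulators of eIF2 alpha and 0.08 for modifiers of ATF4 protein.

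Of the 28 listed bZIP relatives and paralogs 21 were tested, and under the knockout label 5 rose and 6 fell (52.4% passing, median log2 difference -0.08). That share is close to the 54.5% of all tested genes. JDP2, a bZIP repressor that is also on the list of ATF4-induced genes, fell to 10.4 ± 0.327 FPKM, against 22.2 ± 1.14 FPKM in the controls (log2 difference -1.03, limma adjusted p = 1.53e-05). CREB3L4, a membrane-bound bZIP factor, and ATF6B, a relative of the sensor ATF6, also fell, with log2 differences of -0.66 and -0.52. CEBPA, a C/EBP paralog of CEBPB and CEBPG named here after its values were seen, fell to 2.47 ± 0.286 FPKM, against 4.7 ± 0.203 FPKM in the controls (log2 difference -0.72, limma adjusted p = 0.000343). Paralogs of TRIB3 and CHAC1 rose, as did PPP1R15B above. TRIB1, a pseudokinase of the same family as TRIB3, rose to 5.58 ± 0.199 FPKM in libraries labelled knockout, against 3.74 ± 0.245 FPKM in the controls (log2 difference 0.47, limma adjusted p = 0.000792). CHAC2, which also acts on glutathione, rose to 18.4 ± 0.317 FPKM, against 13.6 ± 1.21 FPKM in the controls (log2 difference 0.41, limma adjusted p = 0.00175). MAFG, a small Maf protein that pairs with other bZIP factors, rose by 0.41 on the log2 scale.

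The IRE1 and ATF6 branches, the parts of the unfolded protein response that do not run through eIF2 alpha, were split: among 20 tested genes 8 rose under the knockout label and 3 fell. That is 55% passing, beside 54.5% of all tested genes, with a median log2 difference of 0.06. Only 5 rose without library 1 labelled knockout, without control library 2 or without a variance trend, and 10 rose on the TPM scale. XBP1, the transcription factor made after IRE1 splices its mRNA, fell to 70.4 ± 0.419 FPKM, against 132.9 ± 1.28 FPKM in the controls (log2 difference -0.91, limma adjusted p = 2.41e-06). ERN1, the gene of IRE1 alpha, and HERPUD1, a factor of protein degradation at the endoplasmic reticulum, fell too, with log2 differences of -0.38 and -0.36. The chaperone genes DNAJB11 and CANX rose by 0.25 and 0.20. SDF2L1 had a log2 difference of 0.17 (limma adjusted p = 0.038), and its call was lost without a variance trend (0.0545) and without any 1 library other than library 3 labelled knockout (0.0795 to 0.103). ATF6 is on this list and among the relatives.

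The list of modifiers of ATF4 protein covered phosphorylation, ubiquitin transfer and acetylation. It also held the prolyl hydroxylase genes EGLN1, EGLN2 and EGLN3, and MTOR and RPTOR, whose pathway acts on ATF4 synthesis. Of its 16 tested genes, 6 rose and 1 fell in the libraries labelled knockout. That is 43.8% passing, beside 54.5% of all tested genes, with a median log2 difference of 0.08. On the TPM scale that split was 6 and 0, and with median centring 7 and 0. With the filter at 5 FPKM, 6 rose and 2 fell among 15 tested genes. MTOR, the kinase of the growth pathway that raises ATF4 synthesis, rose to 19.4 ± 0.523 FPKM, against 14.6 ± 0.048 FPKM in the controls (log2 difference 0.39, limma adjusted p = 0.000221). CREBBP, an acetyltransferase, rose by 0.27, FBXW11, a subunit of the ubiquitin ligase that recognises ATF4, by 0.26, RPTOR, the mTORC1 scaffold, by 0.26 and CUL1, the ligase backbone, by 0.16 on the log2 scale. KAT2B had a log2 difference of -0.15 (limma adjusted p = 0.0293), and that call was lost without any 1 of the 6 libraries (0.0562 to 0.0806), under quantile normalization (0.0987), median centring (0.0614) and the TPM scale (0.0536).

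The profile of ATF4 over the 6 libraries was compared with those of 8766 genes averaging at least 5 FPKM, by the root mean square distance between log2(FPKM + 1) values centred on each gene's mean. The closest were FGD3 at 0.02, EFNA1, a ligand of Eph receptors, at 0.033, and GAMT, an enzyme of creatine synthesis, at 0.038. ARSD, an arylsulfatase, followed at 0.041 and PHYKPL, a lyase of phosphorylated hydroxylysine, at 0.048. FGD3, for example, was at 3.71, 3.34 and 3.59 FPKM in libraries labelled knockout, against 7.57, 8.04 and 8.1 FPKM in the controls. The log2(FPKM + 1) scale shrinks the step of such low genes, so this order depends on the pseudocount. By mean FPKM, FGD3 was 2.23-fold lower under the knockout label, EFNA1 1.94-fold and ATF4 1.92-fold. Among the 10 regulators PPP1R15A was the closest to ATF4, at 0.067, followed by DDIT3 at 0.129, and CEBPB was the farthest of those compared, at 0.339. NUPR1 was too scarce to enter. Over 6 libraries in 2 groups, any gene with a step of similar size and close replicates has a short distance.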

How the data were processed

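RNA was measured in 3 libraries labelled sgRBM15 and 3 labelled sgctrl. The authors deposited FPKM, per the file headers, and HISAT2 2.2.1, StringTie 2.0.4 and hg38 are named in the submitters' processing notes. The sources used here give no settings, annotation or use of strand for them. Columns were matched to libraries by name. Genes averaging at least 1 FPKM entered limma 3.58.1 (R 4.3.3) on log2(FPKM + 1), with 2 groups, a variance trend and Benjamini-Hochberg adjustment over all 11451 tested genes, at a threshold of 0.05. Such differences understate the change of low genes. Same-numbered libraries did not deviate together (correlations of deviations between -0.037 and 0), and the main fit does not pair them. The labels do not say whether they were prepared together, and such correlations cannot exclude it.

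The 10 genes and the other lists were chosen with earlier results of these data known. The genes named were the 10 regulators, RBM15, up to 6 changed genes per list with the largest difference and at least 5 FPKM in the higher group, the eIF2 alpha kinases, EIF2S1 and PPP1R15B, and the 5 genes most like ATF4; others are marked in the text. On simulated data for 3 against 3 libraries (11451 genes), 85% of genes changed 1.5-fold, 96% of genes changed 2-fold and 4 of 11251 unchanged genes were called. Only 100 genes, none of low level, were changed at each fold there, while 6245 genes were called in the data. The simulated shares therefore do not give the error rate or the power of the fit to these data. Coordinates and transcripts are from GENCODE 29 on GRCh38, promoters from RefSeq. Figures used matplotlib 3.10.9.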

Additional observations from a re-analysis of the deposited data

How the results depend on the processing

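Differences and calls were recomputed under up to 14 other settings: quantile normalization, median centring, the TPM scale, a constant prior variance, a smaller pseudocount (0.1), a filter at 5 FPKM or none, a replicate block, and 6 fits that each lack 1 library. Genes under the filter drop out at 5 FPKM, the count without overlap was not recomputed for centring, quantiles, prior variance or block, and promoter, leader, order and profile results were not recomputed. Single tests of the cell type markers and of CEBPA were not recomputed either. The replicate block gave 5782 changed genes, against 6245 without it. Among the named genes whose single tests were recomputed, it ended only the calls of SDF2L1 (limma adjusted p = 0.0541) and KAT2B (0.0725). Leaving out 1 library gave between 5439 and 5663. The median of the regulators lay between -0.94 and -0.89, over 9 of them (without NUPR1) with the filter at 5 FPKM. Under quantile normalization 3367 genes were higher and 2894 lower, against 2896 and 3349. For modifiers of ATF4 protein the split of 6 higher and 1 lower became 7 and 0 with median centring and 6 and 0 as TPM. With the filter at 5 FPKM that split was 6 and 2. Of single genes, EPRS1, which did not pass, turned positive with median centring (0.007), as TPM (0.004) and without library 2 labelled knockout (0.009; between -0.049 and 0.009 over the 6 fits), and the cause was not tested. Depth is unknown, so precision rests on 3 libraries per group, and NUPR1, near the filter, is the least certain level.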
